A study of Mus musculus with 25 samples.

Results

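A set of 9 genes activated by the tumor suppressor p53 was followed across livers that lack Mcl-1 in their hepatocytes, livers of hemizygous and wild-type mice, and liver tumors. The genes are Cdkn1a, Gdf15, Mdm2, Ccng1, Btg2, Phlda3, Sesn2, Trp53inp1 and Eda2r, 9 of the 17016 gene symbols named on the array. They were chosen by name as known p53 targets, with earlier results of these data known. Each was read from the probe with the highest mean processed signal among the probes whose accession maps to its symbol. Eda2r, a death receptor of the TNF receptor family, was well above background on 1 of 25 arrays, a tumor of 12 months (animal 1109), and was therefore not tested. The other 8 genes were well above background on all 25 arrays.

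Total RNA of whole liver homogenate was measured on 25 single-colour arrays, 1 per tissue sample, in 8 groups. Knockout (KO) mice carry a hepatocyte-specific deletion of Mcl-1 and were 2 months old (n = 3), 8 months old (n = 3) or 12 months old (n = 4). Hemizygous mice (HET, n = 3) were 2 months old, and wild-type mice (WT) were 2 months (n = 2) or 12 months old (n = 3). Each of the 7 KO mice of 8 and 12 months gave a tumor sample and a non-tumor sample, and an animal number pairs these tissues. None of the mice was treated. The driver of the deletion and the sex of the mice are not given in the sources used here. No WT mouse was sampled at 8 months, so the 8-month KO samples have no control of their age.

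p53 is a transcription factor that is kept low by Mdm2, its ubiquitin ligase, which is itself a p53 target and so closes a feedback loop. When DNA is damaged or a cell is under other stress, p53 accumulates and switches on genes that halt the cell cycle (Cdkn1a, Btg2, Ccng1), dampen growth signals (Phlda3 against AKT, Sesn2 against mTORC1), favour cell death or autophagy (Trp53inp1, Eda2r) or signal to the rest of the body (Gdf15). Several of these genes answer to other inputs as well: Gdf15 and Sesn2 are also induced by ATF4 in the integrated stress response, and Btg2 is an immediate early gene. Mcl-1 is a BCL-2 family protein that restrains BAX and BAK at mitochondria, and hepatocytes without it undergo apoptosis followed by regeneration.

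Promoters were read for the genes that the results turn on. RefSeq windows of assembly GRCm38.p6, 250 bases before to 50 after each annotated start, matched 8 of the 9 symbols with 10 windows, and Trp53inp1 had no match. Each window was searched for the 10-base p53 half-site (the consensus decamer, which is its own reverse complement, so that 1 search covers both strands) and for the ATF4-type element TGATGNAA on both strands. Capitals mark exact matches to the half-site, and no member window matched TGATGNAA, so no 2 motifs overlap. The windows of Cdkn1a (chr17:29090729-29091028, plus strand), Mdm2 (chr10:117710709-117711008, minus strand) and Ccng1 (chr11:40755237-40755536, minus strand) are shown because they hold a match. Those of Gdf15 (chr8:70632407-70632706, minus strand), Btg2 (chr1:134079106-134079405, minus strand) and Phlda3 (chr1:135765835-135766134, plus strand) hold no match and are shown because the results turn on these genes, Gdf15 in KO against WT liver at 2 months and Btg2 and Phlda3 in tumor against WT liver at 12 months.
Cdkn1a: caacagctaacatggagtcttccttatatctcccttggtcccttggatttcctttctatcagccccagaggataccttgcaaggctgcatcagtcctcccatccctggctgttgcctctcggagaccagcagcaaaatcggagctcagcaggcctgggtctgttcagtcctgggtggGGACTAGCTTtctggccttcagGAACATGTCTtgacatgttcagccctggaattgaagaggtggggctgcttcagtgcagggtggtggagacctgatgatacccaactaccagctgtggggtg
Mdm2: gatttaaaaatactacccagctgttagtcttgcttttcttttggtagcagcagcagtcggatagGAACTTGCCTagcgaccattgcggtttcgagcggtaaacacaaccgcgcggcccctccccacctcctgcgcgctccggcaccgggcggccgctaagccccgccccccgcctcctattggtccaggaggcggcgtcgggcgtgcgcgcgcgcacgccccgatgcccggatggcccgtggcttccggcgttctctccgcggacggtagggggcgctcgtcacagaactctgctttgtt
Ccng1: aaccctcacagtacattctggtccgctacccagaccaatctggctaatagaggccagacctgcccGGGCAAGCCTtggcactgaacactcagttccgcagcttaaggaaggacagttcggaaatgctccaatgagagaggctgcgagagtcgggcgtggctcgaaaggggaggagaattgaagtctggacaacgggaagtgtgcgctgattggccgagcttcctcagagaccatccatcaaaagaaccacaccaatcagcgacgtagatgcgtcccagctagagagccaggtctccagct
Gdf15: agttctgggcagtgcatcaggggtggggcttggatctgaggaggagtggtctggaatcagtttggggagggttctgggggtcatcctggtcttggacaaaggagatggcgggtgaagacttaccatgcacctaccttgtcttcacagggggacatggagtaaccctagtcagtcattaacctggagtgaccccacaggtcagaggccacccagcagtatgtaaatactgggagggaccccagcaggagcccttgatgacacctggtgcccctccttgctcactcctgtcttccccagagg
Btg2: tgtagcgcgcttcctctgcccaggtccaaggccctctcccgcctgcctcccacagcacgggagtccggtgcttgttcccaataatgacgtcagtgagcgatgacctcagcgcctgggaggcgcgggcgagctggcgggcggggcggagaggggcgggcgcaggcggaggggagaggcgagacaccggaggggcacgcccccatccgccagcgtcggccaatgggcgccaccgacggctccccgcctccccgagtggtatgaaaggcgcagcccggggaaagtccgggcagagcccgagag
Phlda3: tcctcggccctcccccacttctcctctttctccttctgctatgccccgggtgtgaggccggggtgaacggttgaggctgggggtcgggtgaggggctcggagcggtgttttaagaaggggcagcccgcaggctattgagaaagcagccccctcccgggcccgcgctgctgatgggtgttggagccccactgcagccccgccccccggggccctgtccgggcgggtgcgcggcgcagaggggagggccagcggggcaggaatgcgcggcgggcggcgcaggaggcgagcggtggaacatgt
Cdkn1a held 2 half-sites 12 bases apart, the first at position -73 from the start. Mdm2 held 1 half-site at position -186 and Ccng1 held 1 at position -185. Of all 32851 windows of this kind in the table, 8.36% held a half-site, 0.073% held 2 half-sites at most 13 bases apart and 3.97% held TGATGNAA. A match is a run of letters and not a measured site, and the other annotated start of Cdkn1a and of Gdf15, as well as Sesn2 and Eda2r, had windows without a match.

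Values below are levels, the log2 processed signal minus the 75th percentile of the array, so that a difference of 1 is a factor of 2 in signal. Levels of different genes are read by different probes and are not compared. The tests and counts over all genes below hold 1 probe per symbol and also each probe without a symbol, taken as a gene of its own. The array has 16799 such probes before filtering, and several of them may read 1 gene. Differences between groups, called changes, are group means subtracted on this scale with the standard error (SE) of limma's empirical Bayes model, and each p was corrected with the Benjamini-Hochberg method across every gene that passed the filter, with a threshold of 0.05. Between 60.2% and 84.9% of probes were well above background per array, WT animal 641 of 12 months having the highest share and the next array 76.4%. Arrays lay on 8 slides scanned on 2 days. The 10 hepatocyte markers had mean levels between 7.25 and 8.41 on the 25 arrays. Mcl1 fell by 2.46 (SE 0.37, adjusted p = 0.040, limma) in KO against WT liver at 2 months, where its levels were 1.78, 1.45 and 2.02 in KO mice, 3.19, 3.15 and 3.53 in HET mice and 3.97 and 4.45 in WT mice. The 3 genotypes did not overlap. At 12 months the Mcl1 change was -1.69 (adjusted p = 0.091, limma) in non-tumor KO against WT liver, and Mcl1 fell by 2.02 (adjusted p = 0.034) in tumor against WT liver. With the slide as a fixed block the Mcl1 change was -2.07 (adjusted p = 0.62), and without any single KO or WT array of 2 months its adjusted p was above the threshold. In whole liver, fewer cells of a type and less RNA per cell cannot be told apart.

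Over the 25 arrays Gdf15 had the widest span of levels, 5.50, followed by Phlda3 with 5.42, Btg2 with 4.88 and Cdkn1a with 4.75. Mdm2 spanned 1.24 and Ccng1 1.79, so the feedback ligase had the narrowest span of the 8 tested genes. The plot of levels by array shows the separation of the groups for each gene.

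**Figure D1:**
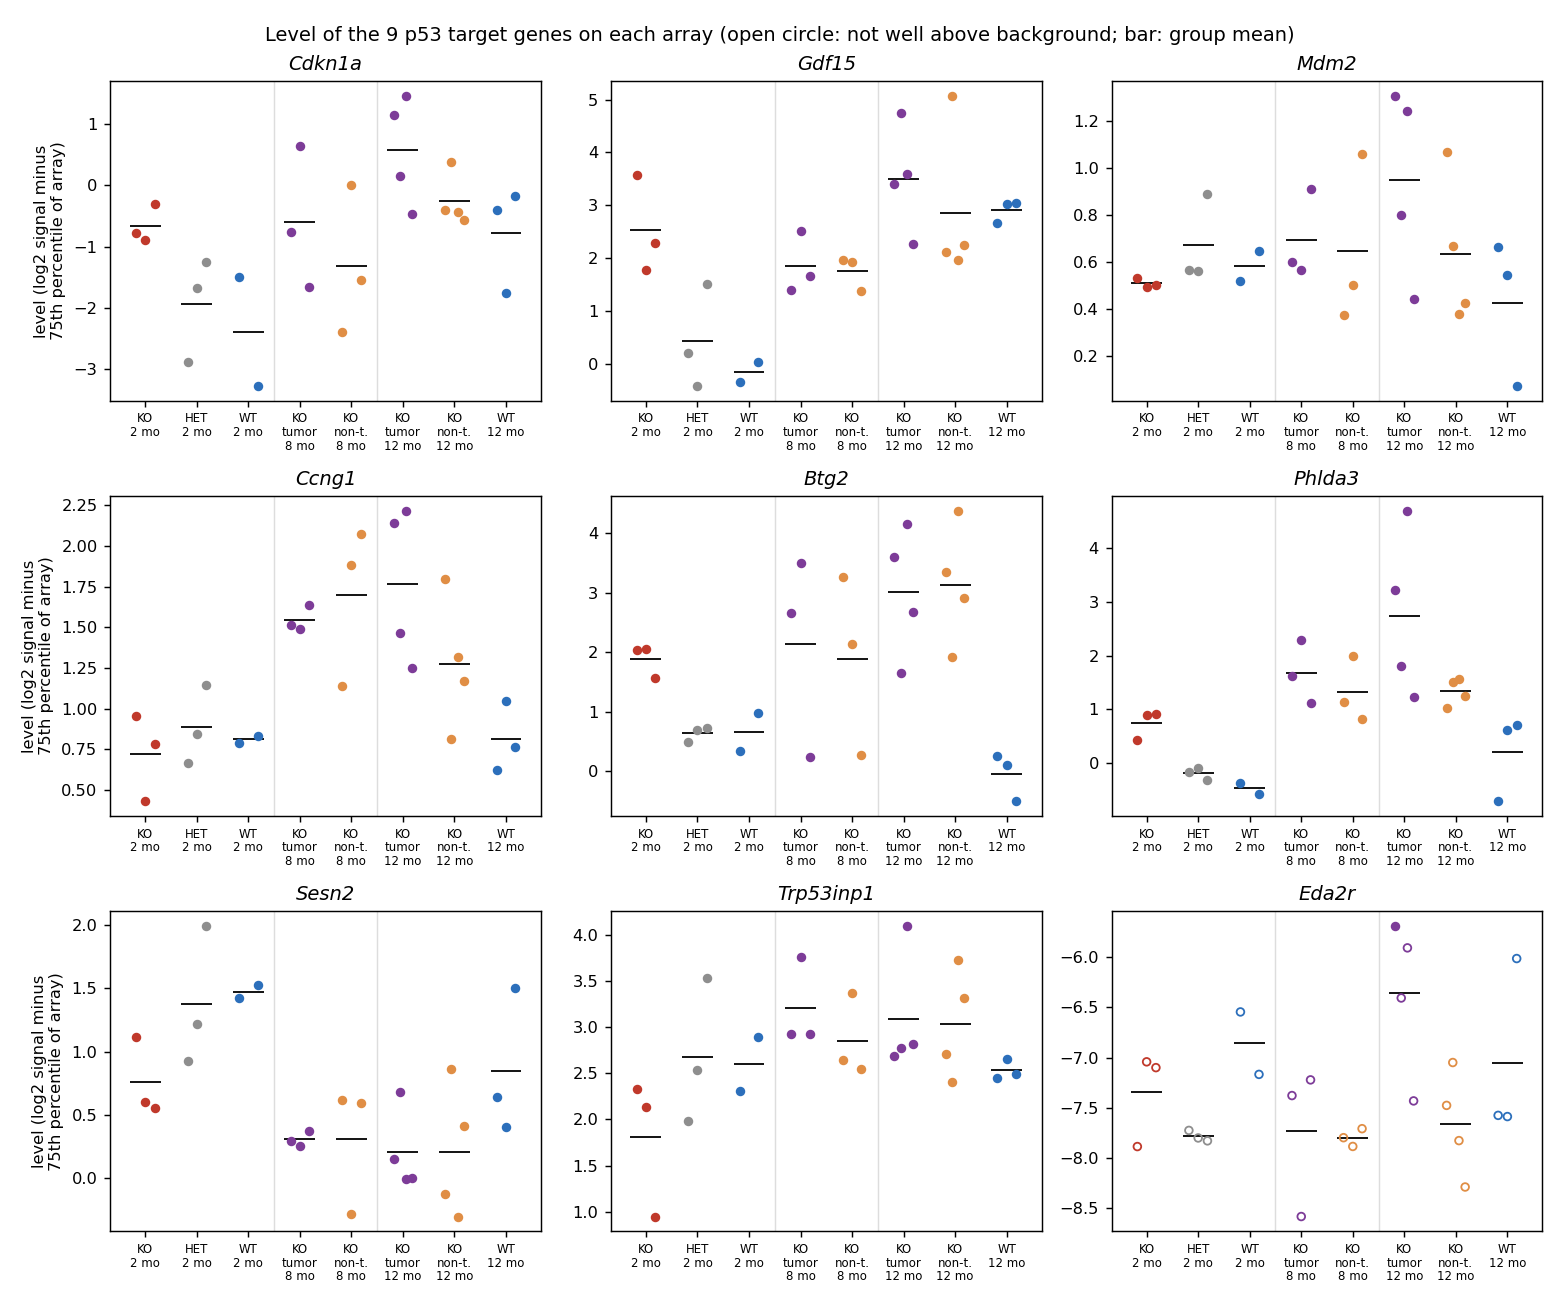
Levels of the 9 genes (log2 processed signal minus the 75th percentile of the array) on each of the 25 arrays by group; points are arrays, open circles are arrays on which the probe was not well above background, bars are group means and non-t. is non-tumor liver. Gdf15 lies at 1.77 or higher in the 3 KO mice of 2 months and at 0.04 or lower in the 2 WT mice of that age, Btg2 lies at 1.92 or higher in the 4 non-tumor samples of 12 months and at 0.25 or lower in the 3 WT mice, and Eda2r is well above background in 1 tumor.

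The first question was what the p53 targets do in young livers that have lost Mcl-1. There, 4 genes, the stress hormone Gdf15, the CDK inhibitor Cdkn1a, the AKT repressor Phlda3 and the antiproliferative factor Btg2, lay above every WT value in every KO liver at 2 months, and Sesn2 lay below. None of the 8 passed the threshold. Mdm2, Ccng1 and Trp53inp1 overlapped between the groups on the probe used.

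Gdf15 had levels of 3.57, 1.77 and 2.28 in KO livers, of 0.21, -0.42 and 1.51 in HET livers and of -0.35 and 0.04 in WT livers. All KO values stood above the values of both other genotypes, which overlapped. The change in KO against WT liver was 2.69 (SE 0.81, adjusted p = 0.34, limma), or 6.47-fold. The mean was 2.54 ± 0.93 in KO, 0.43 ± 0.99 in HET and -0.16 ± 0.27 in WT livers (SD, n = 3, 3 and 2).

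Cdkn1a, which encodes p21, had levels of -0.78, -0.90 and -0.30 in KO livers, -2.89, -1.67 and -1.26 in HET livers and -1.50 and -3.29 in WT livers. Its change of 1.74 (SE 0.72, adjusted p = 0.50, limma) in KO against WT liver rested on 2 WT arrays that lay far apart. Without WT animal 34 the change was 0.85, and without WT animal 31 it was 2.63.

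Btg2 had levels of 2.04, 2.05 and 1.56 in KO livers, of 0.49, 0.70 and 0.73 in HET livers and of 0.35 and 0.98 in WT livers. The KO livers stand apart from both other genotypes, with a change of 1.22 (SE 0.72, adjusted p = 0.67, limma) against WT. Its other probes A_52_P35217 and A_52_P925197 gave differences of 1.57 and 1.24. The cyclin G gene Ccng1, whose product recruits a phosphatase to Mdm2, was at 0.96, 0.43 and 0.78 in KO livers and 0.79 and 0.83 in WT livers, a change of -0.09 (95% confidence interval -0.80 to 0.63). On its other probe, A_51_P161612, the KO livers (0.24 to 0.49) lay below the WT livers (0.63 to 0.93), with a difference of -0.44.

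Phlda3, whose product competes with AKT for membrane lipid, had levels of 0.43, 0.88 and 0.91 in KO livers, of -0.16, -0.10 and -0.31 in HET livers and of -0.37 and -0.59 in WT livers. The 3 genotypes did not overlap, and the change in KO against WT liver was 1.22 (SE 0.42, adjusted p = 0.41, limma). Sesn2 went the other way, with 1.12, 0.60 and 0.56 in KO livers and 1.42 and 1.52 in WT livers, a change of -0.71 (SE 0.45, adjusted p = 0.69). Trp53inp1, an autophagy and apoptosis factor, had 2.33, 2.14 and 0.95 in KO livers and 2.31 and 2.89 in WT livers, a change of -0.79 (SE 0.52, adjusted p = 0.71).

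Mdm2 was tightly grouped, at 0.53, 0.49 and 0.50 in KO livers and at 0.52 and 0.65 in WT livers. The change was -0.07 with a 95% confidence interval of -0.69 to 0.54, and its other probe differed by 0.11. Trp53 itself had a change of -0.95 (SE 0.34, adjusted p = 0.45, limma) by the probe used and a difference of 0.43 by its other probe, so that the probes disagree in sign.

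Counted together, 0 of the 8 genes were called in KO against WT liver at 2 months, against 0.0222% of 27027 genes tested. An unadjusted p under 0.05 was found in 3 of the 8 (Gdf15, Phlda3 and Cdkn1a) and in 2407 of the 27027 genes. Of the 8, 4 lay above WT on every array, where 16.8% of genes did, and 1 lay below, where 20.4% did. The median change of the 8 was 0.57 and that of all genes -0.04. No slide held KO and WT mice of this age. With the slide as a fixed block, which links them through HET mice alone and so rests on KO animal 137 and HET animal 30, the changes were 5.35 for Gdf15, 2.63 for Cdkn1a, 1.51 for Btg2 and 0.73 for Phlda3, while Sesn2, Trp53inp1, Ccng1 and Mdm2 turned positive (0.57, 1.004, 0.54 and 0.27), none called. The mitosis genes were higher beside these genes: 26 of 26 mitosis genes had positive changes, and their mean level was -1.97 to 0.60 in KO livers and -3.15 to -3.10 in WT livers. All 15 macrophage markers had positive changes too, with mean levels of 1.90 to 2.09 in KO livers and 0.20 to 0.36 in WT livers, and 11 of 12 stellate and matrix genes did, with 1.69 to 1.82 in KO livers and 0.53 in both WT livers. Of the neutrophil markers 8 of 9 had positive changes, with -3.81 to -1.97 in KO livers and -5.50 to -5.24 in WT livers. The mean levels of cholangiocyte markers (-2.44 to -2.26 in KO livers and -2.92 to -2.89 in WT livers) and of B and plasma cell markers (-2.74 to -2.15 in KO livers and -3.23 to -3.14 in WT livers) did not overlap either. The part of these cells in the changes of the p53 targets was not tested.

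**Figure D2:**
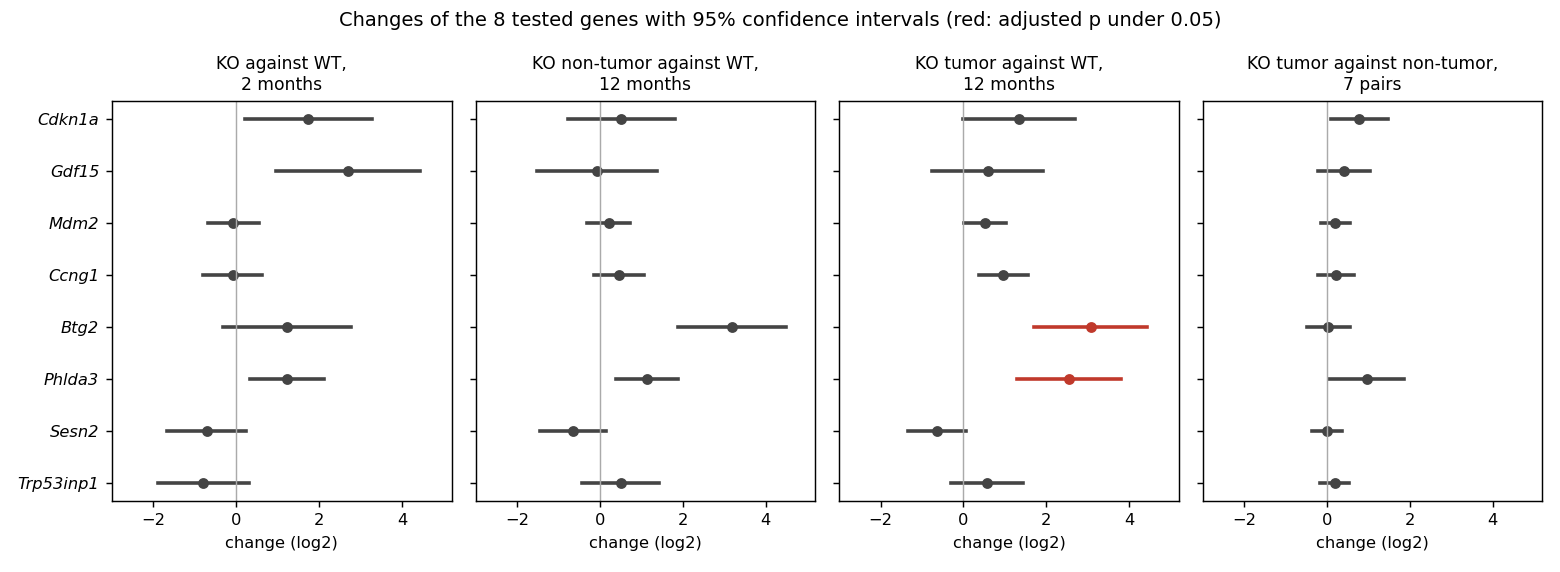
Change of the 8 tested genes on the log2 scale (point) with its 95% confidence interval (line) in 4 comparisons, red where the adjusted p was under 0.05. Btg2 (3.07) and Phlda3 (2.54) in tumor against WT liver are the 2 changes past the threshold, and the intervals of Mdm2 span 0 in all but that comparison.

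Hemizygous livers were compared with both other genotypes at 2 months to ask whether loss of 1 allele moves the same genes. KO livers again lay above all HET livers in Gdf15 (change 2.11, SE 0.72), Cdkn1a (1.28, SE 0.64), Btg2 (1.25, SE 0.65) and Phlda3 (0.93, SE 0.37), and below them in Mdm2 (-0.16, SE 0.26). With limma 0 of the 8 were called (adjusted p 0.43 to 0.95), against 0.0518% of all genes. An unadjusted p under 0.05 was found in 2 of the 8 and in 2241 of 27030 genes tested. The 4 genes above stand against 15.2% of all genes and the 1 below against 10.1%. Sesn2, Trp53inp1 and Ccng1 had changes of -0.62, -0.88 and -0.16. On the slide that held 1 KO and 2 HET arrays, the KO array differed by 3.68 in Gdf15, 1.50 in Cdkn1a, 1.45 in Btg2 and 0.57 in Phlda3, but by 0.05 in Sesn2, 0.08 in Trp53inp1 and 0.20 in Ccng1. KO against HET and KO against WT share the 3 KO arrays. In this comparison, positive changes were found in 26 of 26 mitosis genes (mean levels -1.97 to 0.60 in KO livers and -3.59 to -2.67 in HET livers) and in 15 of 15 macrophage markers (1.90 to 2.09 in KO livers and 0.34 to 0.67 in HET livers). Of the neutrophil markers 8 of 9 had positive changes and 2 rose (-3.81 to -1.97 in KO livers and -5.73 to -4.67 in HET livers). The changes were positive in 11 of 12 stellate and matrix genes, 9 of 10 T and NK cell markers and 5 of 5 B and plasma cell markers, whose mean levels did not overlap between KO and HET livers, and neither did those of the cholangiocyte markers, 4 of 9 positive. Their part in the changes of the p53 targets was not tested.

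In HET against WT liver the 8 changes ranged between -0.09 (Sesn2) and 0.59 (Gdf15). They were 0.45 (SE 0.72) for Cdkn1a, 0.28 (SE 0.42) for Phlda3, 0.09 for Mdm2, 0.08 for Trp53inp1, 0.07 for Ccng1 and -0.03 for Btg2. With limma 0 of the 8 were called, against 0% of all genes, and 0 had an unadjusted p under 0.05, where 326 of 27026 genes did. Phlda3 was the 1 gene of the 8 above WT on every HET array, where 8.5% of all genes were, and 0 of the 8 lay below, where 9.92% did. On the slide with 1 HET and 2 WT arrays the HET array differed by 1.67 in Gdf15, 1.13 in Cdkn1a and 0.93 in Trp53inp1, and by 0.06 in Btg2. Mean levels of stellate and matrix genes (0.73 to 1.03 in HET livers and 0.53 in both WT livers), endothelial markers (1.11 to 1.35 in HET livers and 0.78 to 0.84 in WT livers) and cholangiocyte markers (-2.58 to -2.48 in HET livers and -2.92 to -2.89 in WT livers) did not overlap, and their part was not tested.

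At 12 months the question was whether the difference persists in liver outside the tumors. Btg2 and Phlda3 lay above every WT value in all 4 non-tumor KO livers, while Gdf15 and Cdkn1a no longer stood apart. Again 0 of the 8 passed limma's test, against 0.0185% of all genes, and 2 had an unadjusted p under 0.05, where 4654 of 27035 genes did. The 2 genes above all WT values stand against 5.09% of genes, and 0 lay below, against 5.23%. No slide held KO and WT mice of 12 months, so genotype and slide cannot be told apart within this age.

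Btg2 had levels of 3.35, 1.92, 4.38 and 2.91 in non-tumor KO livers and of 0.11, -0.51 and 0.25 in WT livers. The lowest KO liver, animal 638, lay well above the highest WT liver, and the change was 3.19 (SE 0.61, adjusted p = 0.091, limma), or 9.11-fold. It passed the threshold without animal 638 (change 3.59, adjusted p = 0.0054) and with the scan day as a block (3.64, adjusted p = 0.023). The scan-day value rests on WT animal 641, the only WT array of 12 months scanned with the KO arrays.

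The probes of Btg2 differed in size. Non-tumor KO livers averaged 3.14 ± 1.02 and WT livers -0.05 ± 0.40 (SD, n = 4 and 3) on the probe used, whereas the differences of means were 1.13 on A_52_P35217 and 0.86 on A_52_P925197. On both of these probes, too, the KO and WT livers of 12 months did not overlap, as the plot of the 3 probes shows. The mean of all probes gave a change of 1.73.

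**Figure D3:**
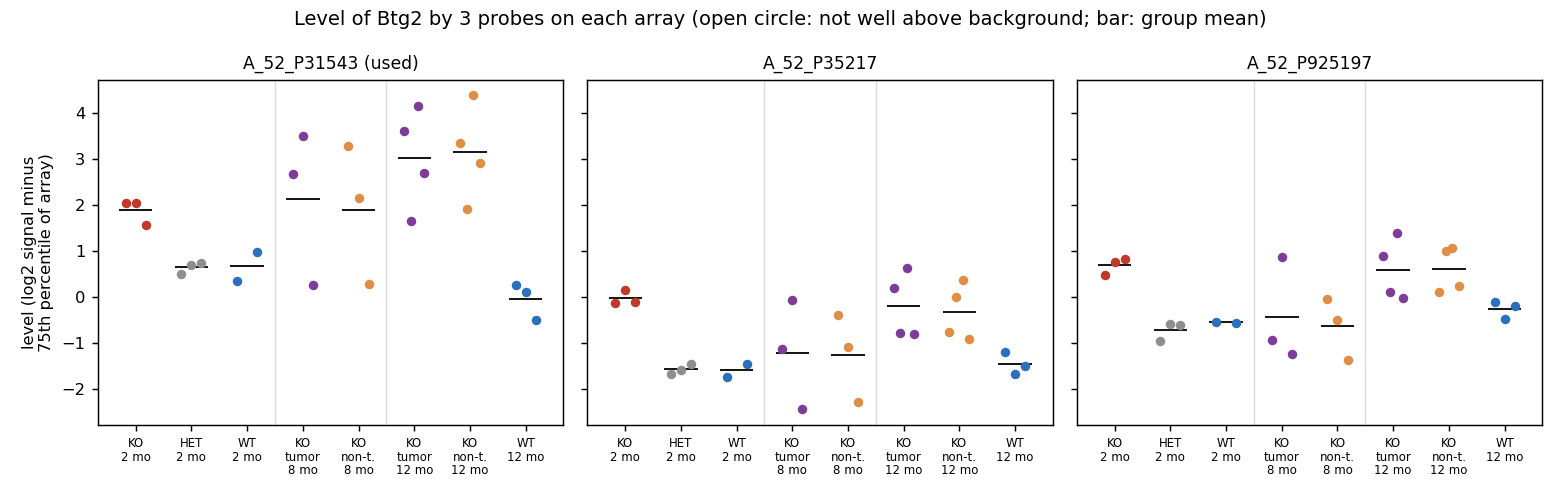
Levels of Btg2 on each array by its 3 probes, the one used on the left; points are arrays, bars are group means and non-t. is non-tumor liver. All 3 probes place the KO livers of 2 months and the non-tumor and tumor samples of 12 months above the WT livers of the same age, and the used probe separates the 12-month groups by 3.19 against 1.13 and 0.86 for the others.

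Phlda3 had levels of 1.02, 1.51, 1.56 and 1.24 in non-tumor KO livers and of 0.62, 0.70 and -0.72 in WT livers, a change of 1.14 (SE 0.35, adjusted p = 0.14, limma). The groups came close without overlapping, and on the first scan day, which holds 1 of the 3 WT arrays, the difference was 0.63. Gdf15 had levels of 2.11, 5.07, 1.97 and 2.25 in non-tumor KO livers and of 3.03, 3.05 and 2.67 in WT livers, a change of -0.06 (95% confidence interval -1.51 to 1.39). Animal 638 holds the highest Gdf15 level of all 25 arrays, and the other 3 KO livers, at 2.11 ± 0.14 (SD, n = 3), lie below every WT liver.

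Cdkn1a had levels of -0.41, 0.39, -0.44 and -0.56 in non-tumor KO livers and of -1.76, -0.17 and -0.41 in WT livers, so that 1 WT array lay far below the others, and the change was 0.52 (SE 0.60). The changes of the other genes were 0.51 (SE 0.43) for Trp53inp1, 0.46 (SE 0.28) for Ccng1, 0.21 (SE 0.24) for Mdm2 and -0.64 (SE 0.37) for Sesn2. For Trp53inp1 the other probe gave -0.63. With the scan day as a block the change was -0.09 for Cdkn1a and 0.57 for Mdm2. Of the mitosis genes 26 of 26 had positive changes again, with mean levels of -2.23 to 0.28 in non-tumor KO livers and -4.82 to -2.56 in WT livers, and of the macrophage markers 15 of 15, with 1.83 to 2.69 in non-tumor KO livers and -0.56 to 1.44 in WT livers. Of the hepatocyte markers 2 of 10 had positive changes, with mean levels of 7.42 to 7.70 in non-tumor KO livers and 7.80 to 8.31 in WT livers. Of the T and NK cell markers 9 of 10 had positive changes, with -2.75 to -1.89 in non-tumor KO livers and -4.46 to -2.52 in WT livers, and these ranges overlapped. The part of these lists in the change of Btg2 and Phlda3 was not tested.

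Age was examined within each genotype. In WT livers Gdf15 was the gene that stood out: its levels were 3.03, 3.05 and 2.67 at 12 months and -0.35 and 0.04 at 2 months, a change of 3.07 (SE 0.81, adjusted p = 0.20, limma), or 8.40-fold. The change of Cdkn1a was 1.62 (SE 0.72), with overlapping ages, and that of Btg2 was -0.72 (SE 0.72), each 12-month liver lying below both 2-month livers. The others had changes of 0.68 (Phlda3), -0.62 (Sesn2), -0.16 (Mdm2), -0.07 (Trp53inp1) and -0.0004 (Ccng1). None of the 8 was called, against 0.0407% of all genes, and 2 had an unadjusted p under 0.05, where 2872 of 27028 genes did. The 1 gene above and 1 below without overlap stand against 14.8% and 12.9% of genes. The WT groups lay on different slides and 2 of the 3 arrays of 12 months were scanned on the second day. Of the neutrophil markers 8 of 9 had positive changes with age, with mean levels of -4.79 to -1.86 at 12 months and -5.50 to -5.24 at 2 months, and of the cholangiocyte markers 8 of 9, with -2.80 to -1.32 at 12 months and -2.92 to -2.89 at 2 months. Their part in the change of Gdf15 was not tested. The other Btg2 probes gave 0.14 and 0.29, the opposite sign. The Gdf15 change was 3.20 with the scan day as a block and 6.37 with the slide as a fixed block, which leads from WT animal 641 through KO and HET mice to the WT mice of 2 months.

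In KO livers none of the 8 genes passed the test with age. Non-tumor liver of 8 months against KO liver of 2 months gave changes of -0.78 (SE 0.72) for Gdf15, -0.66 (SE 0.64) for Cdkn1a and 0.01 for Btg2, and 12 against 2 months gave 0.31 (SE 0.68), 0.40 (SE 0.60) and 1.25 (SE 0.61). For Btg2 the other probes gave -1.23 and -1.32 at 8 months and -0.30 and -0.09 at 12 months, so that the probes disagree. Trp53inp1 lay above the 2-month values on every older array, with changes of 1.05 (SE 0.46) at 8 months and 1.23 (SE 0.43) at 12 months. Its levels were 3.37, 2.64 and 2.54 at 8 months, 2.71, 2.40, 3.73 and 3.32 at 12 months and 2.33, 2.14 and 0.95 at 2 months. The second probe of Trp53inp1 gave -0.49 and 0.34 for the same ages. Ccng1 had 1.88, 1.14 and 2.07 at 8 months and 0.96, 0.43 and 0.78 at 2 months, a change of 0.97 (SE 0.30, adjusted p = 0.17, limma), and its other probe gave 0.92.

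The Phlda3 change was 0.57 (SE 0.37) at 8 months and 0.59 (SE 0.35) at 12 months, all 4 livers of 12 months lying above the 2-month livers. For Sesn2 it was -0.45 and -0.55, and for Mdm2 0.14 and 0.13. With limma 0 of the 8 passed at 8 months, against 0% of all genes, and 0 at 12 months, against 0.0074%. An unadjusted p under 0.05 was reached by 2 genes at 8 months (Ccng1 and Trp53inp1) and by 1 at 12 months (Trp53inp1). Of 27034 genes tested, 4316 reached it at 8 months and 4660 at 12 months. The 2 genes above without overlap at each age stand against 12.3% and 6.25% of all genes, and 0 of the 8 lay below at either age, against 11.8% and 14%. Older and younger KO livers lay on different slides. At 12 against 2 months 8 of 10 T and NK cell markers had positive changes, 6 with an unadjusted p under 0.05 and 0 called by limma, with mean levels of -2.75 to -1.89 at 12 months and -3.72 to -3.27 at 2 months. Hepatocyte markers had positive changes in 1 of 10 at 12 months and in 2 of 10 at 8 months, with mean levels of 8.00 to 8.41 at 2 months, 7.53 to 7.98 at 8 months and 7.42 to 7.70 at 12 months. The stellate and matrix genes at 12 months (1.26 to 1.60, against 1.69 to 1.82 at 2 months) and the cholangiocyte markers at 8 months (-2.08 to -1.22, against -2.44 to -2.26 at 2 months) did not overlap with the younger livers. The part of these lists in the changes of Trp53inp1, Ccng1 and Phlda3 was not tested.

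The difference between the genotype effects at the 2 ages was tested as an interaction. For Gdf15 the KO-minus-WT change at 12 months minus that at 2 months was -2.76 (SE 1.06, adjusted p = 0.48, limma), and with animal 638 left out it was -3.50 and passed the threshold (adjusted p = 0.043). Over the alternatives its adjusted p ranged between 0.043 and 0.89. Btg2 had an interaction of 1.97 (SE 0.94), Trp53inp1 of 1.30 (SE 0.67), Cdkn1a of -1.21 (SE 0.93), Ccng1 of 0.55, Mdm2 of 0.28, Sesn2 of 0.07 and Phlda3 of -0.08. No gene passed, of the 8 or of all genes tested (0%), and 1 of the 8 had an unadjusted p under 0.05, where 2603 of 27027 genes did.

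The 7 tumors were next compared with liver outside the tumor, each within 1 KO mouse. Phlda3 and Cdkn1a had the highest mean differences of the 8 genes, and both differences were highest in animal 702. Neither passed the threshold, nor did any other gene on the array.

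Phlda3 in tumors was at 2.29, 1.62 and 1.12 at 8 months and at 3.22, 1.80, 4.70 and 1.23 at 12 months, and in non-tumor tissue of the same animals at 2.00, 1.12 and 0.81, and 1.02, 1.51, 1.56 and 1.24. It was higher in the tumor in 6 of 7 animals, by 3.14 in animal 702, 2.20 in animal 1109 and at most 0.50 in the others, and the mean difference was 0.96 (SE 0.40, adjusted p = 0.999, limma). Leaving out 1 animal at a time gave 0.59 to 1.12.

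Cdkn1a was at 0.64, -0.76 and -1.67 in tumors of 8 months and at 1.15, 0.16, 1.47 and -0.48 in those of 12 months, and in non-tumor tissue at 0.01, -2.39 and -1.56, and -0.41, 0.39, -0.44 and -0.56. It was higher in the tumor in 5 of 7 animals, with 1.91 in animal 702, 1.64 in animal 1287 and 1.56 in animal 1109, a mean difference of 0.78 (SE 0.31, adjusted p = 0.999, limma). The tumor of animal 702 also had the highest Cdkn1a, Phlda3, Ccng1 and Trp53inp1 levels of all 25 arrays.

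Gdf15 differed by 0.41 (SE 0.28) and was higher in 5 of 7 tumors, with 1.62 in animal 702 and 1.30 in animal 1109. The mean differences of the others were 0.22 (SE 0.19) for Ccng1, 0.20 (SE 0.15) for Mdm2, 0.18 (SE 0.15) for Trp53inp1, 0.03 (SE 0.23) for Btg2 and -0.00 (SE 0.16) for Sesn2. The other Trp53inp1 probe gave -0.24, the opposite sign. On the probe used Btg2 was lower in 5 of 7 tumors and higher in 2, by 1.35 in animal 1347 and 0.25 in animal 1109. Animal 1347 is the only one whose tumor and non-tumor arrays lay on different slides and scan days. Mdm2 on the probe used was higher in 6 of 7 tumors, with differences between -0.15 and 0.87. Of the 8 genes 0 were called, against 0% of all genes, and 2 (Phlda3 and Cdkn1a) had an unadjusted p under 0.05, where 1000 of 24584 genes did. None of the 8 was higher in all 7 tumors, where 0.623% of genes were, and 0 were lower in all 7, where 0.838% were. The median of the 8 mean differences was 0.21, against -0.02 over all genes.

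**Figure D4:**
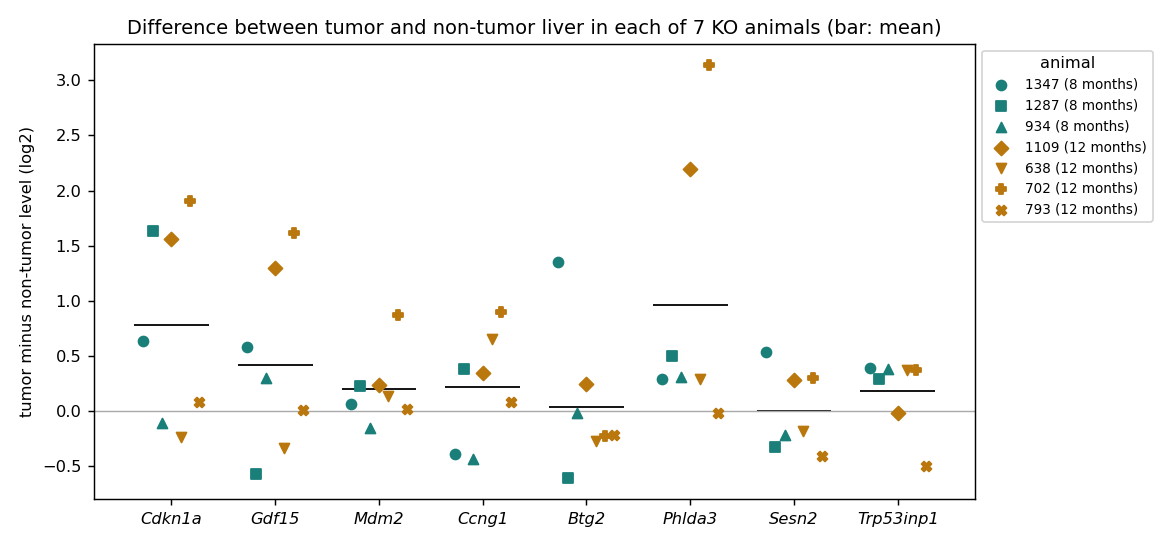
Tumor minus non-tumor level of the 8 tested genes in each of 7 KO animals, green for 8 months and brown for 12 months, with the mean as a bar. Animals 702 and 1109 lie highest in Phlda3 (3.14 and 2.20). On the probes used, the differences of Sesn2, Mdm2 and Trp53inp1 stay between -0.50 and 0.87.

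No difference of the tumor effect between ages passed the test. The effect at 12 months minus that at 8 months was 1.04 (SE 0.76) for Phlda3, 0.64 (SE 0.35) for Ccng1, 0.54 (SE 0.56) for Gdf15, 0.27 (SE 0.32) for Mdm2, 0.11 (SE 0.65) for Cdkn1a, 0.00 for Sesn2, -0.30 (SE 0.32) for Trp53inp1 and -0.36 (SE 0.48) for Btg2, all with adjusted p of 0.88 or higher in limma and none with an unadjusted p under 0.05, as 0% of all genes passed. An unadjusted p under 0.05 was found in 1530 of 24583 genes tested. The intervals of the 8 genes are wide, that of Phlda3 spanning -0.71 to 2.79. In tumors 26 of 26 mitosis genes had positive paired differences, with a median of 0.33. Paired differences were positive in 1 of 10 hepatocyte, 5 of 15 macrophage, 2 of 9 neutrophil, 2 of 10 T and NK cell and 1 of 5 B and plasma cell markers. They were positive in 6 of 12 stellate and matrix genes, 4 of 9 cholangiocyte and 4 of 8 endothelial markers. The part of these lists in the differences of Phlda3 and Cdkn1a was not tested.

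Tumors of 12 months were finally set against WT liver of that age, in a model of all 25 arrays with the animal as a random block. Btg2 and Phlda3 rose, 2 of the 8 genes, against 0.995% of all genes. Ccng1 and Trp53inp1 also lay above every WT value, and the 4 genes without overlap stand against 8.2% of genes, while 0 lay below, against 7.99%. This comparison uses the same WT arrays as that of non-tumor liver, and no slide held these WT arrays beside a KO array of 12 months.

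Btg2 rose by 3.07 (SE 0.66, adjusted p = 0.046), with levels of 3.60, 1.64, 4.15 and 2.68 in tumors and 0.11, -0.51 and 0.25 in WT livers. The other probes differed by 1.27 and 0.85, and with the mean of all probes the change was 1.73 (adjusted p = 0.082, limma). Phlda3 rose by 2.54 (SE 0.60, adjusted p = 0.048), with levels of 3.22, 1.80, 4.70 and 1.23 in tumors and 0.62, 0.70 and -0.72 in WT livers. Every tumor lay above every WT liver in both genes, animal 793 being the lowest in Phlda3 and animal 638 in Btg2.

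Both calls are near the threshold. With no filter on dim probes the adjusted p was 0.056 for Btg2 and 0.058 for Phlda3, and with the mean of all probes of a gene that of Phlda3 was 0.054. Without WT animal 1110 the adjusted p was 0.19 for Btg2 and 0.28 for Phlda3, without tumor 702 it was 0.15 for both, and without tumor 1109 it was 0.092 and 0.096. Without WT animal 641 or tumor 793 the call of Btg2 was lost (adjusted p = 0.061 and 0.055). With the slide as a random block both had an adjusted p of 0.14, and with the scan day as a block the change was 3.97 (adjusted p = 0.033) for Btg2 and 2.48 (adjusted p = 0.067) for Phlda3.

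Ccng1 had levels of 2.14, 1.47, 2.22 and 1.25 in tumors and of 1.05, 0.76 and 0.63 in WT livers, a change of 0.96 (SE 0.28, adjusted p = 0.081, limma). The change was 1.35 (SE 0.65) for Cdkn1a, 0.59 (SE 0.64) for Gdf15, 0.56 (SE 0.42, but -0.88 on its other probe) for Trp53inp1, 0.52 (SE 0.25) for Mdm2 and -0.64 (SE 0.34) for Sesn2. Gdf15 in tumors was at 3.41, 4.74, 3.59 and 2.26, overlapping the 3.03, 3.05 and 2.67 of WT livers. In these tumors 26 of 26 mitosis genes had positive changes and 11 of them rose, against 0.995% of all genes called. Their mean levels were -1.67 to 0.39 in tumors and -4.82 to -2.56 in WT livers. Of the macrophage markers 14 of 15 had positive changes, with 1.57 to 2.27 in tumors and -0.56 to 1.44 in WT livers. Of the hepatocyte markers 2 of 10 had positive changes, with 7.45 to 7.57 in tumors and 7.80 to 8.31 in WT livers. The part of these lists in the rise of Btg2 and Phlda3 was not tested.

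Other p53 targets, upstream regulators and the integrated stress response were read from lists of 36, 15 and 24 genes that were written with earlier results of these data known. Of the other p53 targets 23 of 35 tested had positive changes in KO against WT liver at 2 months (median 0.16), 21 of 35 in non-tumor KO against WT liver at 12 months (median 0.28), 23 of 35 in tumor against non-tumor tissue (median 0.14) and 23 of 36 in tumor against WT liver at 12 months (median 0.33). The medians over all genes were -0.04, -0.12, -0.02 and -0.05. In non-tumor KO liver of 8 months against KO liver of 2 months 25 of 35 had positive changes (median 0.39, against -0.03 over all genes). The mean levels of the list there were -0.42 to -0.22 at 8 months and -0.66 to -0.45 at 2 months. At 2 months both KO and HET livers (-0.68 to -0.64) also lay apart from WT livers (-0.85). So did tumors (-0.36 to 0.10) from WT livers (-1.06 to -0.49) at 12 months. The means overlapped between KO and HET livers and between non-tumor KO and WT livers of 12 months. Calls were made in tumor against WT liver only, where 4 of the 36 rose and 0 fell, against 0.995% of all genes called. Among them Gtse1 was well above background on no WT array of 12 months, so its call sets a signal against background.

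Those 4 were Pmaip1, Apaf1, Psrc1 and Gtse1. The BH3-only death factor Pmaip1 (Noxa), which binds the Mcl-1 protein, rose by 2.44 (SE 0.52, adjusted p = 0.046) and the apoptosome gene Apaf1 by 1.67 (SE 0.38, adjusted p = 0.047) in tumor against WT liver. Psrc1, a microtubule gene, rose by 4.35 (SE 1.02, adjusted p = 0.048) and was well above background on 2 of 3 WT arrays, and Gtse1, a cell-cycle gene that restrains p53, was at least 3.41-fold higher, being well above background on 3 of 4 tumor arrays and on 0 of 3 WT arrays (adjusted p = 0.048). With the slide as a random block the adjusted p was 0.14 for Pmaip1, 0.14 for Apaf1, 0.14 for Psrc1 and 0.15 for Gtse1, and none of the 4 was called without WT animal 1110 (adjusted p 0.26 to 0.28), tumor 1109 (0.092 to 0.096), tumor 702 (0.15 to 0.16) or tumor 793 (0.053 to 0.061). With normexp correction and quantile normalization the change of Gtse1 was 0.55 and that of Psrc1 2.26.

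In non-tumor KO against WT liver at 12 months the smallest p-values of the list belonged to Pmaip1 (change 2.22, SE 0.56, adjusted p = 0.10), Gtse1 (at least 1.82-fold), Psrc1 (2.72, SE 0.82) and the kinase Plk2 (1.25, SE 0.40), and at 2 months to Trp53i11 (1.62, SE 0.59), Ddit4l (1.19, SE 0.45), Psrc1 (at least 3.64-fold) and Pidd1 (-1.44, SE 0.65, but 0.24 with the mean of its probes), none of them called. Without animal 638 the 4 genes of 12 months were all called (adjusted p 0.011 to 0.043), in a setting where 2847 genes passed in place of 5. In paired tumors Apaf1 differed by 0.44 (SE 0.12, adjusted p = 0.999, limma).

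Among the p53 regulators 0 of 12 tested were called in any of the 11 comparisons. In tumor against WT liver Cdkn2a, which encodes the Mdm2 inhibitor Arf and p16, was well above background on 4 of 4 tumor arrays and 0 of 3 WT arrays and at least 1.90-fold higher (adjusted p = 0.086, limma), and the damage kinase gene Atm had a change of -0.98 (SE 0.35, adjusted p = 0.13). The p53 relative Trp73 had a change of 1.67 (SE 0.42, adjusted p = 0.11) in non-tumor KO against WT liver at 12 months and of -2.11 (SE 0.55, adjusted p = 0.28) in KO against WT liver at 2 months. The difference between these was 3.78 (SE 0.70, adjusted p = 0.31).

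The integrated stress response, the other input to Gdf15 and Sesn2, had 15 of 23 genes with positive changes at 2 months (median 0.36), 13 of 23 in non-tumor KO against WT liver at 12 months (median 0.19), 12 of 24 in paired tumors (median -0.00) and 14 of 24 in tumors against WT liver (median 0.23). None was called in any of the 11 comparisons. In KO against WT liver at 2 months the change was 2.65 (SE 0.61, adjusted p = 0.21, limma) for the mitochondrial folate enzyme Mthfd2, 1.1002 (SE 0.38, adjusted p = 0.42) for the transcription factor Atf5, -2.30 (SE 0.95) for the glutathione-degrading Chac1 and -1.43 (SE 0.43) for the transcription factor Cebpb, so that the list held changes of both signs. In WT livers of 12 against 2 months, where the Gdf15 change was 3.07, that of Atf5 was 1.58 (SE 0.38, adjusted p = 0.16) and that of the stress-induced Nupr1 1.85 (SE 0.82). There, 12 of 23 genes of the list had positive changes (median 0.06), with a lowest change of -1.51 and a highest of 1.99.

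**Figure D5:**
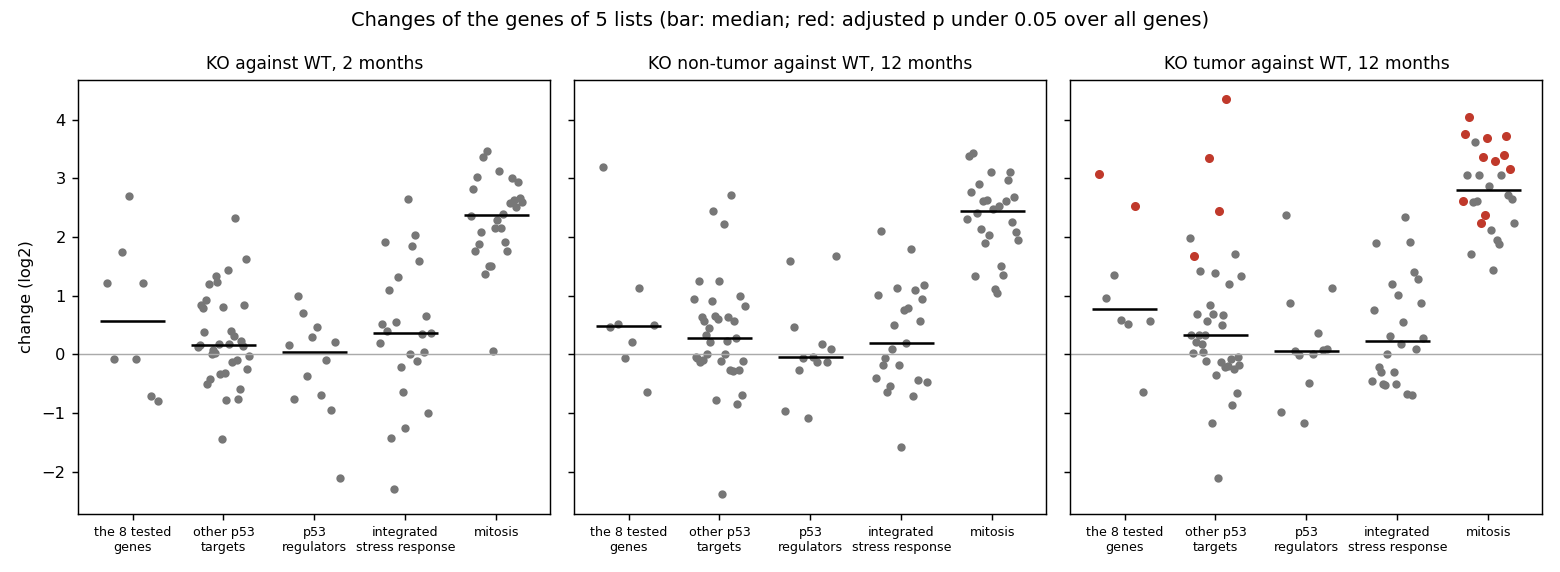
Changes on the log2 scale of the 8 tested genes and of 4 further lists in 3 comparisons; points are genes, bars are medians and red marks an adjusted p under 0.05 over all genes. The medians of the other p53 targets lie at 0.16, 0.28 and 0.33 and those of the mitosis genes at 2.38, 2.44 and 2.80.

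No relation within groups passed a test. Over the 18 arrays without tumor tissue, with levels centred on their group means, Cdkn1a and Gdf15 had a Pearson r of 0.23 (permutation p = 0.25 within groups, 2-sided) and a Spearman rho of 0.22 (permutation p = 0.37). For Cdkn1a with the mean of 35 other p53 targets r was -0.05 and rho -0.09 (permutation p = 0.90 and 0.76), for Gdf15 with the mean of 23 stress response genes -0.29 and -0.12 (permutation p = 0.56 and 0.71), and for Sesn2 with the same mean -0.23 and -0.13 (permutation p = 0.46 and 0.66). Adjusted over these 4 relations the permutation p was 0.74 or higher for r and 0.76 for rho. Without the 2 arrays farthest from the median of the first gene, r was 0.28, -0.24, -0.17 and -0.22. On the 16 arrays of the first scan day it was 0.27, 0.03, -0.33 and -0.37, and slides held too few arrays for a value.

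As a description over all 25 arrays, which share animals, slides and the group differences above, 21 of the 28 pairs of members had r above 0 with a median of 0.30. The highest was 0.75 for Phlda3 with Cdkn1a, and Phlda3 with Ccng1 had 0.73. The lowest was -0.66 for Sesn2 with Btg2. Among 10957 named genes well above background on every array, the levels most like those of Cdkn1a belonged to Tle6 (r = 0.85), N4bp3 (0.84), Bcl3 (0.84), Nes (0.84) and Frmd6 (0.81), and those most like Gdf15 to Lrfn3 (0.82), Lzts2 (0.81), Fhod1 (0.80), Stat5a (0.78) and Efnb1 (0.78), none of them on the p53 lists.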

How the data were processed

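Total RNA of mouse liver was hybridised to single-colour Agilent arrays, and the deposited scanner files hold spot intensities from Agilent Feature Extraction, per the file headers. A series table of log2 values by the authors holds the same arrays, its scale and centring not being stated. It ranks probes as the median signal does (Spearman 0.99999 or higher per array), its array medians lie between 6.57 and 6.58, and it served as an alternative. The submitters' processing notes name limma without its role.

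Levels are the log2 processed signal, averaged over the spots of a probe without an outlier mark, minus the 75th percentile of the array. Control spots were left out. Of 41174 probes 24375 (59.2%) were named through RefSeq accessions. A probe was kept if well above background on as many arrays as the smallest group has (2 of 18, 3 of 14, 2 of 25). Fits used limma 3.58.1 in R 4.3.3: 18 arrays without tumor tissue in 6 groups, 14 paired arrays with animal as fixed block, and 25 arrays in 8 groups with animal as random block (correlation 0.43). p-values measure the spread between these animals. Scripts were tested on simulated data. Background normexp used the median signals with an offset of 50, since no mean signals were available. Alternatives were other normalizations, filters, probe rules, blocks and leaving out arrays.

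Tumor and non-tumor samples of 1 animal deviated together (correlation 0.14 to 0.62, the own pair being highest in 5 of 7). The named genes are the 9 members, Mcl1, up to 4 genes with the smallest p per list and comparison, and the 5 genes most like Cdkn1a and Gdf15. Members and lists were chosen with earlier results of these data known.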

Additional observations from a re-analysis of the deposited data

Results flagged for a closer look

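In non-tumor liver of KO animal 638 at 12 months, Cdkn1a (level 0.389) and Gdf15 (level 5.07) lay far from the other 3 animals of the group, which had -0.41, -0.44 and -0.56 for Cdkn1a and 2.11, 1.97 and 2.25 for Gdf15. The tumor of KO animal 702 stood apart from the other 3 tumors of 12 months in Trp53inp1, with a level of 4.10 against 2.69, 2.77 and 2.81. On the probe used its difference between tumor and non-tumor tissue in Mdm2, 0.867, was also far above those of the other 6 animals. Those ranged between -0.15 and 0.24. On the other Mdm2 probe animal 702 differed by 0.49, below animals 638 (0.86) and 793 (0.74). Groups of 4 to 10 samples were examined in 26 tests of this kind, of which chance flags about 1 in 20.

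Eda2r, which entered no comparison, was well above background in the tumor of KO animal 1109 at 12 months, with a level of -5.69, and on 0 of 5 WT arrays.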

How the results depend on the processing

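Of 179 values of single genes, 139 kept their sign under every alternative run, and of 3194 alternative values 107 turned sign, 63 lost the threshold and 31 gained it. The cause of these moves was not tested. The count of the 8 genes called in non-tumor KO against WT liver at 12 months was 0, and it was 1 (Btg2) with normexp, with the deposited log2 values, with the filter of well above background on every array, with trend and robust fitting and with the scan day as a block. It was 0 to 1 when 1 array was left out (1 without KO animal 638), and so was that of the genotype-by-age difference (Gdf15, without the same animal). In tumor against WT liver the count was 2, against 0 with no filter, 0 with the mean of probes, 0 with the slide as a random block and 1 with the scan day as a block, and 0 to 2 when 1 array was left out: 0 without WT 1110, tumor 1109 or tumor 702 and 1 without WT 641 or tumor 793. Counts over all genes moved far more: in non-tumor KO against WT liver 5 genes were called, against 2847 without animal 638 and 3464 with the scan day as a block, and in tumor against WT liver 282, against 22 with no filter, 25 with the mean of probes, 4 with the slide as a random block and 1506 with the filter on every array. Animal numbers pair the tumor and non-tumor samples. Without the replicate block of animals 0 of the 8 genes were called in paired tumors, as with it, and the block changed no other call.

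With normexp background correction and quantile normalization the sign turned in KO against WT at 2 months Mdm2 0.044 and Ccng1 0.062, in HET against WT Btg2 0.022, in WT of 12 against 2 months Ccng1 0.046 and Trp53inp1 0.047. It also turned in paired tumors Btg2 -0.024. With the authors' deposited log2 values the sign turned in KO against WT at 2 months Mdm2 0.055 and Ccng1 0.066, in HET against WT Btg2 0.024, in WT of 12 against 2 months Ccng1 0.047 and Trp53inp1 0.043. It also turned in paired tumors Btg2 -0.016. With the mean of all probes of a gene the sign turned in KO against WT at 2 months Mdm2 0.018 and Pidd1 0.24, in HET against WT Ccng1 -0.024, in non-tumor KO against WT at 12 months Trp53inp1 -0.064. It also turned in KO of 8 against 2 months Btg2 -0.85, in WT of 12 against 2 months Trp53inp1 0.22 and Mcl1 -0.23, in the genotype-by-age difference Pidd1 -0.55. It also turned in paired tumors Trp53inp1 -0.028, in tumor against WT Trp53inp1 -0.16. With the slide as a fixed block the sign turned in KO against WT at 2 months Mdm2 0.27, Ccng1 0.54, Sesn2 0.57, Trp53inp1 1.004, Pidd1 0.31 and Trp53 0.10, in KO against HET Ccng1 0.20, Sesn2 0.048 and Trp53inp1 0.075, in HET against WT Btg2 0.065 and Sesn2 0.52. It also turned in WT of 12 against 2 months Ccng1 0.69, Sesn2 1.49, Trp53inp1 1.95, Trp53 0.47, Mdm4 1.202 and Kat5 -0.34, in paired tumors Btg2 -0.19, in the age difference of paired tumors Btg2 0.20. With the level of Xist as a covariate the sign turned in HET against WT Btg2 0.20, in the genotype-by-age difference Sesn2 -0.12. With the scan day as a fixed block the sign turned in non-tumor KO against WT at 12 months Cdkn1a -0.088, in WT of 12 against 2 months Sesn2 0.029 and Mcl1 -0.39, in the genotype-by-age difference Sesn2 -0.58. It also turned in paired tumors Btg2 -0.19, in the age difference of paired tumors Btg2 0.20. With quantile normalization alone the sign turned in KO of 8 against 2 months Btg2 -0.0009, in WT of 12 against 2 months Ccng1 0.035, in the age difference of paired tumors Sesn2 -0.014. With the slide as a random block, an alternative chosen after seeing the data the sign turned in KO of 8 against 2 months Btg2 -0.029, in WT of 12 against 2 months Ccng1 0.048 and Trp53inp1 0.082, in the genotype-by-age difference Sesn2 -0.058. On the first scan day alone the correlation of Cdkn1a with the other p53 targets was 0.032, in place of -0.05.

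Leaving out 1 array or animal at a time turned the sign of the following. In KO against WT at 2 months Ccng1 gave -0.21 to 0.058. In HET against WT Cdkn1a gave -0.44 to 1.34, Mdm2 gave -0.020 to 0.15, Ccng1 gave -0.056 to 0.18, Btg2 gave -0.34 to 0.29, Sesn2 gave -0.40 to 0.13 and Trp53inp1 gave -0.34 to 0.43. In non-tumor KO against WT at 12 months Gdf15 gave -0.80 to 0.23. In KO of 8 against 2 months Mdm2 gave -0.072 to 0.27 and Btg2 gave -0.68 to 0.82. In KO of 12 against 2 months Gdf15 gave -0.43 to 0.83 and Mdm2 gave -0.019 to 0.21. In WT of 12 against 2 months Mdm2 gave -0.28 to 0.021, Ccng1 gave -0.12 to 0.093, Trp53inp1 gave -0.36 to 0.22 and Mcl1 gave -0.23 to 0.25. In the genotype-by-age difference Phlda3 gave -0.54 to 0.17 and Sesn2 gave -0.15 to 0.40. In paired tumors Btg2 gave -0.19 to 0.14 and Sesn2 gave -0.094 to 0.064. In the age difference of paired tumors Cdkn1a gave -0.30 to 0.57, Btg2 gave -0.78 to 0.20 and Sesn2 gave -0.16 to 0.27.

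Groups of 2 to 4 arrays, and 7 animals in the paired tumors, limit the precision, as does the spread between animals. Eda2r lay at background on all arrays but 1, where a change cannot be read.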
